A study of Macaca mulatta with 449 samples.

Results

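The genes described here mark the oligodendrocyte lineage, from precursor cells to the cells that begin to make myelin. The set was chosen by symbol and holds 9 genes, PDGFRA, CSPG4, GPR17, NKX2-2, BCAS1, OLIG1, OLIG2, SOX10 and MYRF. Of these, 6 had a row among the 30807 genes of the count table, namely PDGFRA (ENSMMUG00000017395), CSPG4 (ENSMMUG00000016104), GPR17 (ENSMMUG00000004180), OLIG2 (ENSMMUG00000017652), BCAS1 (ENSMMUG00000020082) and MYRF (ENSMMUG00000006655). OLIG1, SOX10 and NKX2-2 were not analysed here. Each of the 6 members was related to MBP (ENSMMUG00000011333), which encodes myelin basic protein, in the same samples.

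Oligodendrocyte precursor cells persist in the adult brain in both grey and white matter, where they divide slowly and renew the cells that wrap axons in myelin. PDGFRA, the receptor for platelet-derived growth factor A, and CSPG4, the NG2 proteoglycan, lie on the surface of the precursors. OLIG2 is a transcription factor kept through the whole lineage. GPR17, a G protein-coupled receptor, is a gene of precursors that have committed to differentiate, and BCAS1 is known from newly formed, early myelinating oligodendrocytes. MYRF is the transcription factor that switches on myelin genes and stays on in mature oligodendrocytes. PDGFRA and CSPG4 are not limited to the lineage, since fibroblast-like cells of meninges and vessels also express PDGFRA and pericytes also express CSPG4.

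The data were RNA-seq counts of rRNA-depleted RNA from 51 sub-regions of the brains of 8 rhesus macaques, with 1 sample for each sub-region and animal. Of these, 31 sub-regions were grouped as cerebral cortex and 20 as other. The entorhinal and perirhinal cortex, though cortical, was kept apart and counted among the 20. The sub-regions were taken as 16 region groups. These were cerebral cortex, entorhinal and perirhinal cortex (PA), olfactory bulb (OB), corpus callosum (CC), thalamus (THA), hypothalamus (HTHA), medulla oblongata (MO), pons (PON), cerebellum (CB, 2 sub-regions), ventral tegmental area (VTA), substantia nigra (SN), amygdala (AMY), hippocampus (HIP, 3 sub-regions), striatum (STR, 3 sub-regions), globus pallidus (GP) and pituitary (PIT). Rhesus 7 and Rhesus 8 were young males of 4 and 3.8 years, Rhesus 4 and Rhesus 10 young females of 3.2 and 5 years, Rhesus 2 and Rhesus 3 mid-aged males of 10 years, and Rhesus 6 and Rhesus 11 mid-aged females of 10 and 9.8 years. The labels name no treatment and no engineered allele for any animal.

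Each sample held 7784678 to 31083490 counts on genes (median 10698602). Levels are counts scaled by library size (CPM), on TMM-adjusted library sizes and were compared only within a gene. The member with the fewest reads, GPR17, had 11 to 548 counts per sample outside the pituitary, and PDGFRA had 706 to 5104. Some libraries stood apart in genes of other cells. The hypothalamus library of Rhesus 6 held 473 CPM of SLC17A7, a glutamatergic neuron gene, against 0.959 to 5.11 CPM in the other 7. The corpus callosum library of Rhesus 10 held 40.8 CPM of FOLR1, a choroid plexus gene, against 4.16 to 12.3 CPM in the others. The globus pallidus library of Rhesus 2 held 73357 CPM of MBP against 26536 to 38261 CPM in the others. The medulla library of Rhesus 6 held 260 CPM of the 6 neuron genes, summed, against 3596 to 6902 CPM in the other 7, and the most astrocyte (14641 CPM), microglia (513 CPM) and myelin RNA (101329 CPM) of the medulla libraries. The globus pallidus library of Rhesus 6 held 277 CPM of the anterior pituitary genes, with 31.7 CPM next. In the ventral tegmental area the serotonin neuron genes ran from 0 to 341 CPM (median 44.3), highest in Rhesus 11, with 202 CPM next. Leaving out Rhesus 11 removes only the highest of these libraries. Called contrasts of the members between these region groups and the cortex are given with and without the library named. Other values of these region groups rest on all libraries, unless stated.

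The precursor surface genes varied least over the brain. PDGFRA averaged 185 ± 15.6 CPM (SD, n = 8 animals, as for all levels below) in the corpus callosum, where it was highest, and 74.5 ± 5.79 CPM in the cerebellum, the lowest region group other than the pituitary, a ratio of 2.48. CSPG4 was highest in the ventral tegmental area at 28.3 ± 7.58 CPM and lowest, pituitary aside, in the cerebellum at 8.09 ± 1.91 CPM, a ratio of 3.49. GPR17 spanned 6.53-fold, from 33.7 ± 10.0 CPM in the corpus callosum to 5.16 ± 1.41 CPM in the cerebellum, and OLIG2 spanned 9.30-fold, from 220.5 ± 50.7 to 23.7 ± 4.42 CPM, between the same region groups. The span was wider for BCAS1 and MYRF. BCAS1 ran from 1266 ± 169 CPM in the corpus callosum to 48.6 ± 9.71 CPM in the entorhinal and perirhinal cortex, 26.03-fold, and MYRF from 603 ± 64.0 to 11.8 ± 3.36 CPM, 51.3-fold, against 76.4-fold for MBP (54420 ± 4674 and 712 ± 174 CPM).

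**Figure D1:**
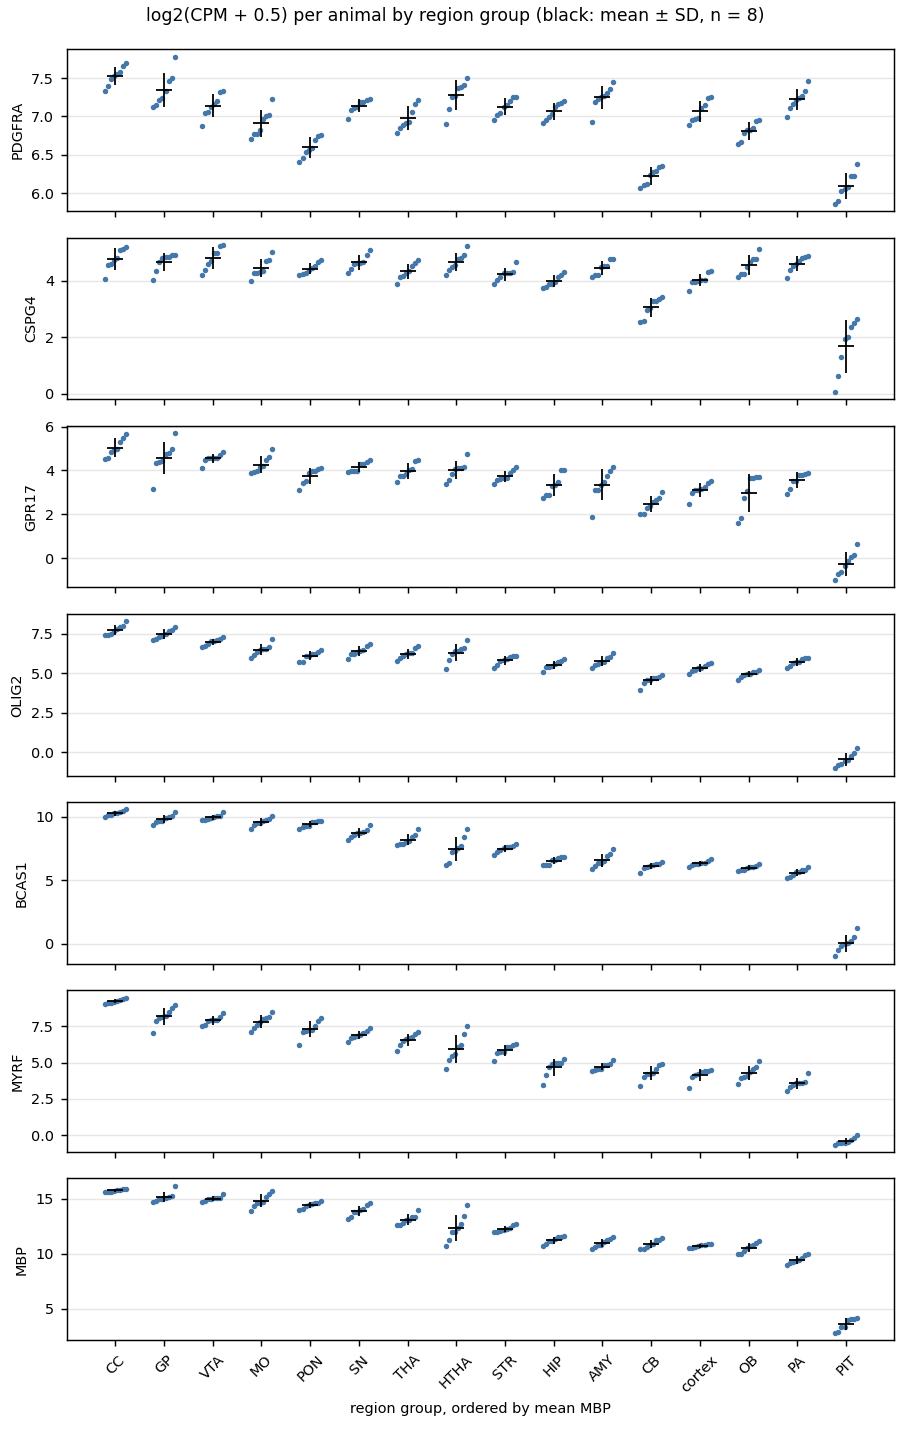
Level of each member and of MBP, as log2(CPM + 0.5), in 16 region groups ordered from left to right by mean MBP. Blue points are the 8 animals, sorted by value, and black bars the mean ± SD, and each panel has its own vertical scale. BCAS1 and MYRF fall from left to right as MBP does. PDGFRA and CSPG4 follow this order less closely (Spearman's rho with MBP over the 16 region groups 0.453 and 0.615). Both are low in the cerebellum as well as in the pituitary at the right end.

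In the order of the region groups, most neighbours differed by less than the SD of their difference over animals. This sets a difference beside its spread and is not a test. Of the 15 steps between neighbours, the mean difference over the animals was larger than its SD at 3 steps for PDGFRA, 3 for CSPG4, 1 for GPR17, 7 for OLIG2, 6 for BCAS1 and 4 for MYRF. The order was clearest at the top for OLIG2, where the corpus callosum exceeded the globus pallidus by 0.27 ± 0.18 (SD of the paired log2 difference), the globus pallidus exceeded the ventral tegmental area by 0.50 ± 0.22, and that exceeded the medulla by 0.48 ± 0.21, each in 8 of 8 animals. For GPR17 the step that exceeded its SD was from the cerebellum to the pituitary, 2.71 ± 0.59.

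All 6 members differed among the 16 region groups (edgeR quasi-likelihood F test with the animal as a block, FDR from 4.42e-45 for PDGFRA to 9.22e-77 for OLIG2). So did 99.6% of the 17086 genes tested, so this call is no feature of the members. Each region group was therefore set against the cortex, the largest tissue sampled, with counts of the 31 cortical sub-regions summed within an animal. A gene was called at FDR < 0.05 over all genes and an absolute log2 fold change (log2FC) above 1. All 15 contrasts share the cortex samples. For the cortex and other region groups with several sub-regions, CPM ranges are of means over the sub-regions within an animal, not of single samples.

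White matter was compared with grey matter first. In the corpus callosum 4 of 6 members were called higher than in cortex, and 19.4% of all genes were called higher. MYRF measured 534 to 713 CPM (median 593) in the corpus callosum and 9.01 to 22.4 CPM (median 18.6) in cortex, a log2FC of 5.09 ± 0.24 (SE; FDR = 1.84e-39). BCAS1 measured 1003 to 1535 CPM (median 1272) against 65.4 to 100.1 CPM (median 79.0), a log2FC of 3.95 ± 0.20 (FDR = 9.12e-37). For both genes the lowest corpus callosum library lay far above the highest cortex value. MBP, for comparison, had a log2FC of 4.99 ± 0.27 (FDR = 6.86e-34).

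OLIG2 measured 171 to 315 CPM (median 212) in the corpus callosum and 30.9 to 49.3 CPM (median 40.3) in cortex, a log2FC of 2.39 ± 0.11 (FDR = 8.74e-39). GPR17 measured 22.4 to 50.5 CPM (median 30.6) against 4.99 to 11.1 CPM (median 8.19), a log2FC of 1.94 ± 0.20 (FDR = 2.59e-16). The ranges did not overlap for either gene, and the log2FC was less than that of MBP for both.

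The precursor surface genes stayed under the fold threshold. PDGFRA measured 161 to 207 CPM (median 185) in the corpus callosum and 117 to 151 CPM (median 131) in cortex, a log2FC of 0.41 ± 0.07 (FDR = 4.25e-08), without overlap of the ranges. CSPG4 measured 16.1 to 35.8 CPM (median 26.7) against 12.1 to 20.1 CPM (median 15.8), a log2FC of 0.71 ± 0.14 (FDR = 2.11e-06), with overlapping ranges. Both were higher in the corpus callosum in 8 of 8 animals. In bulk tissue, fewer cells of a type and less RNA per cell cannot be told apart. Without the corpus callosum library of Rhesus 10, the same 4 genes were called, with log2FC of 5.10 for MYRF, 3.99 for BCAS1, 2.42 for OLIG2 and 2.01 for GPR17, and PDGFRA and CSPG4 stood at 0.43 and 0.70.

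**Figure D2:**
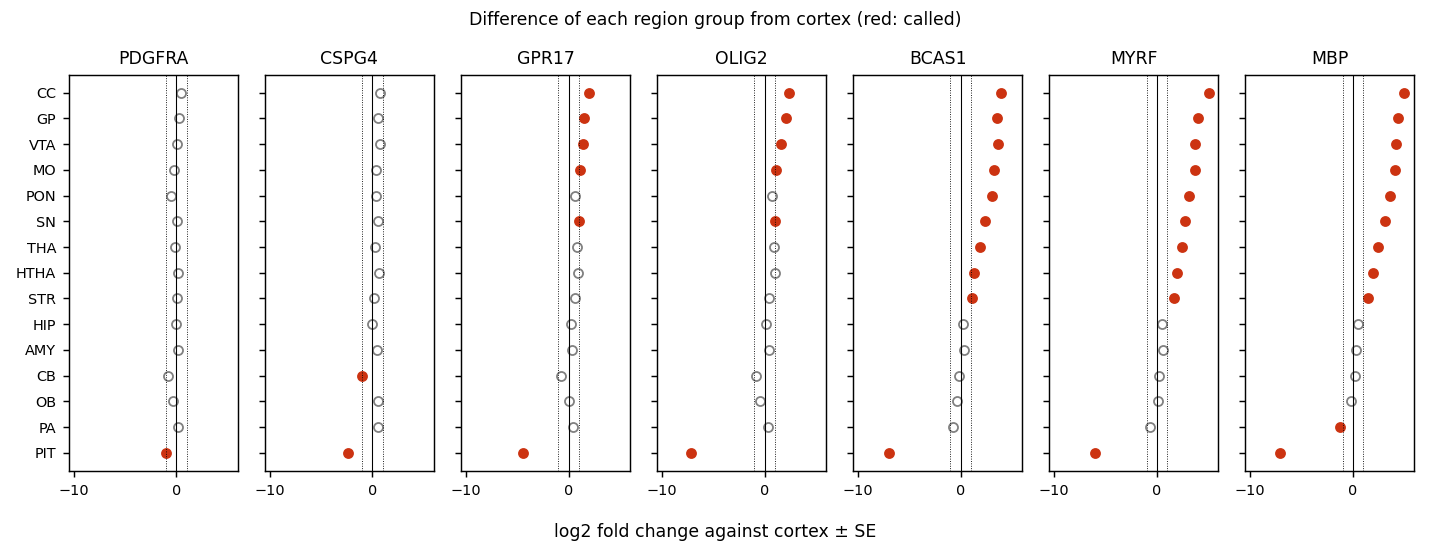
Log2 fold change of each region group against cortex for the 6 members and MBP, with region groups from top to bottom in order of mean MBP. Red points are called at FDR < 0.05 and an absolute log2FC above 1 (dotted lines), open points are not, and SE bars, about 0.07 for PDGFRA and up to 0.35 for MYRF in the pituitary, are mostly hidden by the points; MYRF and BCAS1 are called in each of the upper 9 region groups and PDGFRA in the pituitary alone.

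Over the other 14 region groups, 31 of 84 member contrasts were called, 24 higher and 7 lower. GPR17, OLIG2, BCAS1 and MYRF were called higher in the globus pallidus (16.6% of all genes called higher), the ventral tegmental area (14.1%), the substantia nigra (13.8%) and the medulla (15.3%). In the globus pallidus the log2FC were 4.05 ± 0.23 for MYRF, 3.50 ± 0.19 for BCAS1, 2.10 ± 0.11 for OLIG2 and 1.496 ± 0.195 for GPR17, and without the library of Rhesus 2 they were 4.08, 3.35, 2.07 and 1.63. Without that of Rhesus 6 they were 4.12, 3.53, 2.13 and 1.54. In the medulla they were 3.72 ± 0.22, 3.24 ± 0.19, 1.12 ± 0.11 and 1.14 ± 0.19 in the same order of genes, and 3.62, 3.12, 1.09 and 1.15 without the library of Rhesus 6. In the ventral tegmental area they were 3.73 ± 0.22, 3.59 ± 0.20, 1.58 ± 0.11 and 1.41 ± 0.20, and 3.80, 3.57, 1.60 and 1.43 without that of Rhesus 11. The same genes were called in each case. In the substantia nigra OLIG2 (1.03 ± 0.11) and GPR17 (1.02 ± 0.19) lay at the threshold. With the study's detection rule as filter neither was called (0.95 and 0.94), and without the animal as a block GPR17 was not (0.99). BCAS1 and MYRF alone were called higher in the pons (11.3% of genes), thalamus (9.59%), hypothalamus (10.7%) and striatum (8.77%), with log2FC from 1.11 ± 0.18 for BCAS1 in the striatum to 3.17 ± 0.22 for MYRF in the pons.

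OLIG2 in the hypothalamus measured 37.7 to 141 CPM (median 86.8), the lowest value being that of Rhesus 6 and the highest that of Rhesus 3. Its log2FC was 0.99 ± 0.11, just under the fold threshold. Without the library of Rhesus 6 it was 1.09 ± 0.10 and called (FDR = 7.10e-17), and MYRF and BCAS1 moved from 2.00 and 1.304 to 2.15 and 1.43. That library also had the lowest MBP level of the hypothalamus, 1677 CPM against 2408 to 22445 CPM. The highest library, that of Rhesus 3, was not left out. It held 141 CPM of OLIG2, with 96.6 CPM next, and 22445 CPM of MBP, with 10665 CPM next. The change therefore shows the effect of the lowest library only. The part of the neuron gene in these values was not tested.

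No member was called in the amygdala, hippocampus, olfactory bulb or entorhinal and perirhinal cortex, where 9.79%, 12.6%, 22.7% and 9.02% of genes were called in either direction. The entorhinal and perirhinal cortex had MBP lower than the cerebral cortex, with a log2FC of -1.25 ± 0.23 (FDR = 6.27e-06). BCAS1 (-0.75 ± 0.18) was lower there in 8 of 8 animals and MYRF (-0.61 ± 0.21) in 8 of 8 by mean CPM but in 6 of 8 by mean log2(CPM + 0.5), while PDGFRA (0.13 ± 0.07), CSPG4 (0.56 ± 0.14) and OLIG2 (0.36 ± 0.11) were higher in 8 of 8. The CPM ranges of PDGFRA, CSPG4 and OLIG2 overlapped those of the cortex, PDGFRA at 127 to 176 CPM against 117 to 151 CPM. PDGFRA passed the FDR in the direction opposite to MBP in the pons, where it measured 84.3 to 108 CPM (median 95.1) against 117 to 151 CPM in cortex. Its log2FC there was -0.52 ± 0.07 (FDR = 7.23e-11), while MBP stood at 3.67 ± 0.26. In the medulla PDGFRA had a log2FC of -0.22 ± 0.07 (FDR = 0.00344), and of -0.29 (FDR = 9.39e-05) without the library of Rhesus 6. By mean log2(CPM + 0.5) it was lower there in 6 of 8 animals.

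In the cerebellum CSPG4 was the single member called, at 5.39 to 10.4 CPM (median 8.56) against 12.1 to 20.1 CPM in cortex, a log2FC of -1.03 ± 0.14 (FDR = 1.51e-10). The background was 15.7% of genes called lower. PDGFRA (-0.87 ± 0.07), OLIG2 (-0.80 ± 0.11) and GPR17 (-0.75 ± 0.20) were also lower in 8 of 8 animals, under the fold threshold but with FDR of at most 0.000510. MBP (0.21 ± 0.23), MYRF (0.18 ± 0.20) and BCAS1 (-0.19 ± 0.18) did not pass the FDR there.

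The pituitary, a gland at the base of the brain, was the tissue with the least MBP (6.64 to 17.01 CPM). All 6 members were called lower than in cortex, where 24.3% of genes were called lower. Counts were near the floor for OLIG2 (0 to 11 counts per library), GPR17 (0 to 12), MYRF (2 to 8) and BCAS1 (0 to 28), and 3 counts, the level that a count of 0 allows, equalled 0.223 to 0.351 CPM. These limits cover counting error only. PDGFRA was the exception, with 537 to 1140 counts. It measured 57.6 to 82.5 CPM (median 66.7) in the pituitary, a log2FC of -1.03 ± 0.07 against cortex (FDR = 2.40e-27), compared with -7.15 ± 0.18 for OLIG2, -6.96 ± 0.27 for BCAS1, -6.06 ± 0.35 for MYRF and -4.46 ± 0.29 for GPR17. With DESeq2 size factors the PDGFRA value was -0.97 and not called. CSPG4 measured 0.551 to 5.80 CPM (median 3.45), a log2FC of -2.36 ± 0.16. The summed level of the 9 measured pericyte and fibroblast genes was 325 to 578 CPM in the pituitary and 116 to 194 CPM in cortex, with genes called in both directions. The fibroblast gene COL1A1 had the largest log2FC of these (6.34 ± 0.48) and the pericyte gene RGS5 was called lower (-2.28 ± 0.23). Their part in the PDGFRA level was not tested. The summed level of 3 anterior pituitary genes (PRL, CGA and POU1F1) was 29430 to 349442 CPM there against 3.94 to 28.1 CPM in cortex. Of 15 other precursor genes, 10 were called lower in the pituitary and none higher.

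The members were then related to MBP over the 51 sub-regions. The correlations are descriptions, since sub-regions share animals, libraries and neighbouring tissue. On mean log2(CPM + 0.5), Pearson's r with MBP was 0.991 for BCAS1 and 0.984 for MYRF, 0.844 for OLIG2, 0.755 for GPR17, 0.515 for CSPG4 and 0.291 for PDGFRA, against a median of -0.033 over the 17120 expressed genes. Spearman's rho was close to r for BCAS1 (0.990) and MYRF (0.972), but 0.683 for OLIG2, 0.368 for GPR17, 0.166 for CSPG4 and -0.071 for PDGFRA. Only 2 genes had a higher r than BCAS1 and 7 a higher r than MYRF. For OLIG2 there were 211 such genes, for GPR17 512, for CSPG4 2159 and for PDGFRA 4399. Without the pituitary, r was 0.265 for CSPG4 and 0.020 for PDGFRA, and stayed at 0.990 for BCAS1, 0.987 for MYRF, 0.819 for OLIG2 and 0.629 for GPR17. Then 8 genes had a higher r than BCAS1, 17 than MYRF, 779 than OLIG2, 2572 than GPR17, 6082 than CSPG4 and 8498 than PDGFRA. The slope of log2 member level on log2 MBP level within an animal, pituitary left out, averaged 0.85 for MYRF, 0.75 for BCAS1, 0.30 for OLIG2, 0.20 for GPR17, 0.064 for CSPG4 and 0.0026 for PDGFRA.

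**Figure D3:**
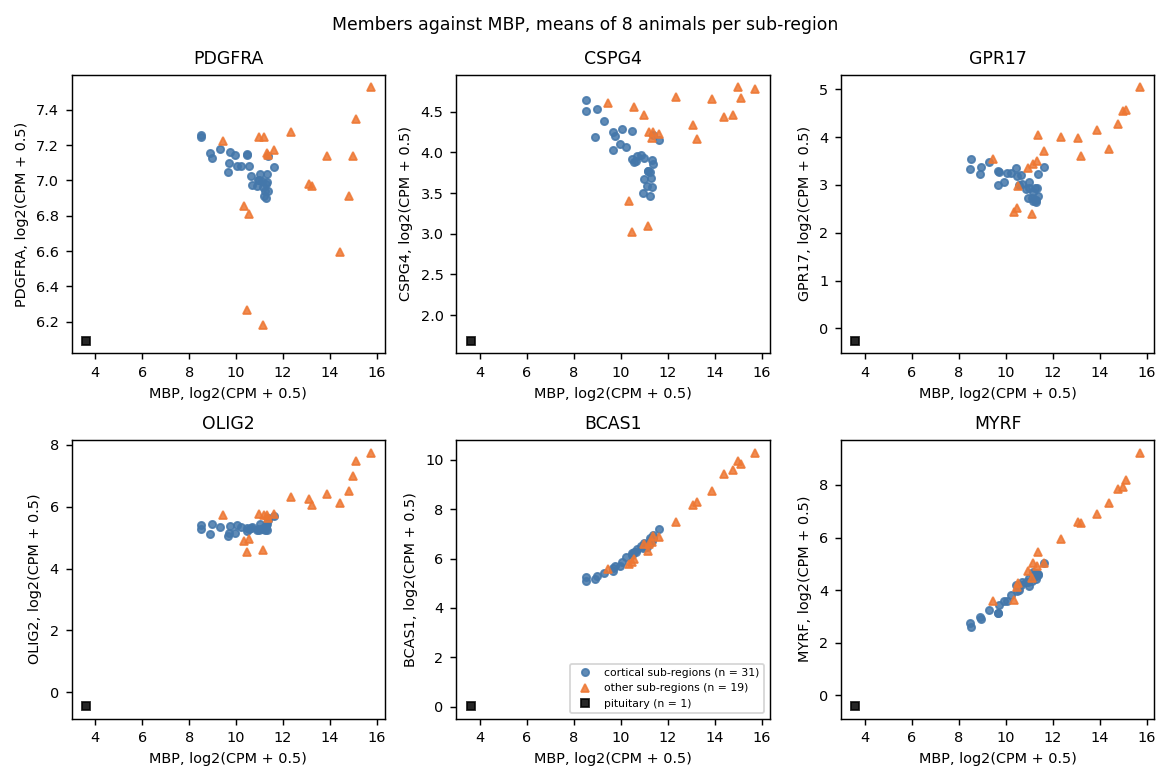
Mean log2(CPM + 0.5) of each member (vertical axis, own scale) against MBP (horizontal axis) in 51 sub-regions, with blue circles for the 31 cortical sub-regions, orange triangles for 19 others and a black square for the pituitary. BCAS1 and MYRF lie along 1 line; PDGFRA, CSPG4 and GPR17 go down with MBP within the cortex (r = -0.783, -0.783 and -0.686), and OLIG2 is nearly level there.

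The ratio of each member to MBP was compared between corpus callosum and cortex in the same animals (exact sign-flip permutation test over 8 animals, two-sided, 6 comparisons, smallest possible p = 0.00781). The log2 ratio was lower in the corpus callosum by 4.56 ± 0.21 for PDGFRA, by 4.30 ± 0.44 for CSPG4, by 3.11 ± 0.40 for GPR17, by 2.61 ± 0.26 for OLIG2 and by 1.05 ± 0.12 for BCAS1 (SD over animals), lower in 8 of 8 animals for each, with exact permutation p = 0.00781 for each. The ratio includes the rise of MBP itself (log2FC 4.99), so a gene that rose clearly less than MBP gives a lower ratio. These p-values therefore add no evidence on the members beyond their log2FC above. How many of all genes would give such a ratio was not computed. For MYRF the corpus callosum minus cortex difference was 0.053 ± 0.47, lower in 4 of 8 animals (exact permutation p = 0.766). Its single animals ran from -0.57 to 0.74. Without Rhesus 10 the difference was -4.58, -4.37, -3.07, -2.64 and -1.07 for the 5 lower genes in the same order and -0.0032 for MYRF (exact permutation p = 0.0156, the smallest that 7 animals allow, and 0.984).

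Within the cortex the members split in direction. All 6 varied among the 31 cortical sub-regions (F test with the animal as a block, FDR from 3.65e-11 for GPR17 to 1.75e-72 for BCAS1), as did 75.0% of the 16039 genes tested. The fitted span from lowest to highest sub-region was 3.11 log2 units for MBP, 2.55 for MYRF and 2.13 for BCAS1, and 1.21 for CSPG4, 0.97 for GPR17, 0.65 for OLIG2 and 0.35 for PDGFRA. BCAS1 and MYRF had r = 0.980 and 0.981 with MBP over these sub-regions. PDGFRA and CSPG4 each had r = -0.783, and GPR17 had -0.686. In single animals, r was negative in 8 of 8 for PDGFRA (-0.844 to -0.268), CSPG4 (-0.807 to -0.391) and GPR17 (-0.584 to -0.240). OLIG2 had r = 0.335, with single animals from -0.045 to 0.492. The middle 90% of all expressed genes ran from -0.812 to 0.821, so these negative values lie within the range of other genes.

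The ventromedial prefrontal cortex and the superior precentral gyrus, a motor area, had the lowest and the highest mean MBP of the cortex, and they were chosen after their values were seen. MBP measured 224 to 537 CPM (median 344) in the former and 2038 to 4459 CPM (median 2927) in the latter. BCAS1 measured 27.01 to 44.7 CPM (median 33.5) in the ventromedial prefrontal cortex and 97.8 to 225 CPM (median 145) in the superior precentral gyrus, and MYRF 3.14 to 9.77 CPM (median 6.30) and 13.02 to 57.7 CPM (median 34.2), without overlap. CSPG4 was lower in the superior precentral gyrus in 8 of 8 animals, at 13.97 to 23.6 CPM (median 16.3) against 18.3 to 29.5 CPM (median 20.8), with overlapping ranges. PDGFRA was 153 ± 15.0 CPM in the ventromedial prefrontal cortex and 136 ± 21.5 CPM in the superior precentral gyrus, lower in the latter in 7 of 8 animals, while GPR17 was lower there in 4 of 8. The precentral gyri did not have the least PDGFRA, CSPG4 or GPR17. PDGFRA was lowest in the superior postcentral gyrus (119.5 ± 12.2 CPM), CSPG4 in the anterior superior occipital gyrus (10.7 ± 2.12 CPM) and GPR17 in the annectant gyri (5.95 ± 1.74 CPM), whose MBP means were 2507, 2436 and 2531 CPM. OLIG2 was highest in the superior precentral gyrus (52.5 ± 12.9 CPM) and lowest in the middle frontal gyrus (33.4 CPM).

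Cells other than the lineage also differed along the cortical MBP range. Over the 31 sub-regions all 6 measured astrocyte genes had a negative r with MBP (-0.683 to -0.300), as had both microglia genes (-0.793 and -0.746), 7 of 9 pericyte and fibroblast genes (median -0.542) and all 3 measured PDGF ligand genes (-0.919 to -0.504), while 4 of 6 neuron genes were positive. The part of these cells in the member values was not tested. Of 15 other precursor genes, 4 were positive and 11 negative (median -0.491), and 12 of 12 other myelin genes were positive (median 0.982). Over all expressed genes 48.8% were positive.

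Among the 20 other sub-regions PDGFRA, CSPG4 and GPR17 were positively related to MBP, with r = 0.547, 0.779 and 0.912 with the pituitary and 0.293, 0.518 and 0.804 without it. OLIG2 had r = 0.857 there without the pituitary, BCAS1 0.995 and MYRF 0.988. The entorhinal and perirhinal cortex counts among the other sub-regions here. The difference between cortical and other sub-regions in r was not tested, and r of all genes over the other sub-regions was not computed.

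In the striatum, members also moved in different directions. The F test over nucleus accumbens, caudate nucleus and putamen called 5 of 6 members and 55.6% of 15570 genes, CSPG4 being the member not called (FDR = 0.800). MBP measured 6972 to 12682 CPM (median 10037) in the putamen and 1699 to 4296 CPM (median 2640) in the caudate nucleus, a log2FC of 1.85 ± 0.19 (FDR = 6.15e-07). BCAS1 measured 213 to 414 CPM (median 309) against 65.7 to 170 CPM (median 135), without overlap, a log2FC of 1.39 ± 0.15 (FDR = 1.12e-06). MYRF measured 45.7 to 144 CPM (median 102) against 25.8 to 57.2 CPM (median 44.1), overlapping, a log2FC of 1.15 ± 0.15 (FDR = 1.05e-05). OLIG2 had a log2FC of 0.44 ± 0.09 (FDR = 0.000840). These 3 members were higher in the putamen in 8 of 8 animals, and 14.8% of genes were called higher there at FDR < 0.05.

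GPR17 and PDGFRA were lower in the putamen than in the caudate nucleus, as were 14.7% of genes. GPR17 measured 7.68 to 17.1 CPM (median 12.5) in the putamen and 11.4 to 21.1 CPM (median 16.2) in the caudate nucleus, a log2FC of -0.45 ± 0.16 (FDR = 0.0363), lower in 7 of 8 animals. PDGFRA measured 105 to 150 CPM (median 123) against 129 to 156 CPM (median 141), a log2FC of -0.17 ± 0.06 (FDR = 0.0336), also lower in 7 of 8. The ranges overlapped for both, and neither was called without the animal as a block (FDR = 0.122 and 0.144). Against the nucleus accumbens, the putamen was higher for BCAS1 (1.70 ± 0.15), MYRF (1.54 ± 0.15) and OLIG2 (0.33 ± 0.09), with 22.2% of genes called higher, and lower for PDGFRA (-0.28 ± 0.06, FDR = 0.000599, 8 of 8 animals), with 22.2% called lower. Without the block OLIG2 was not called in this comparison (FDR = 0.0976). GPR17 alone among the members was called lower in the nucleus accumbens than in the caudate nucleus (-0.61 ± 0.16, FDR = 0.00580, 7 of 8 animals, 16.7% of genes called lower).

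**Figure D4:**
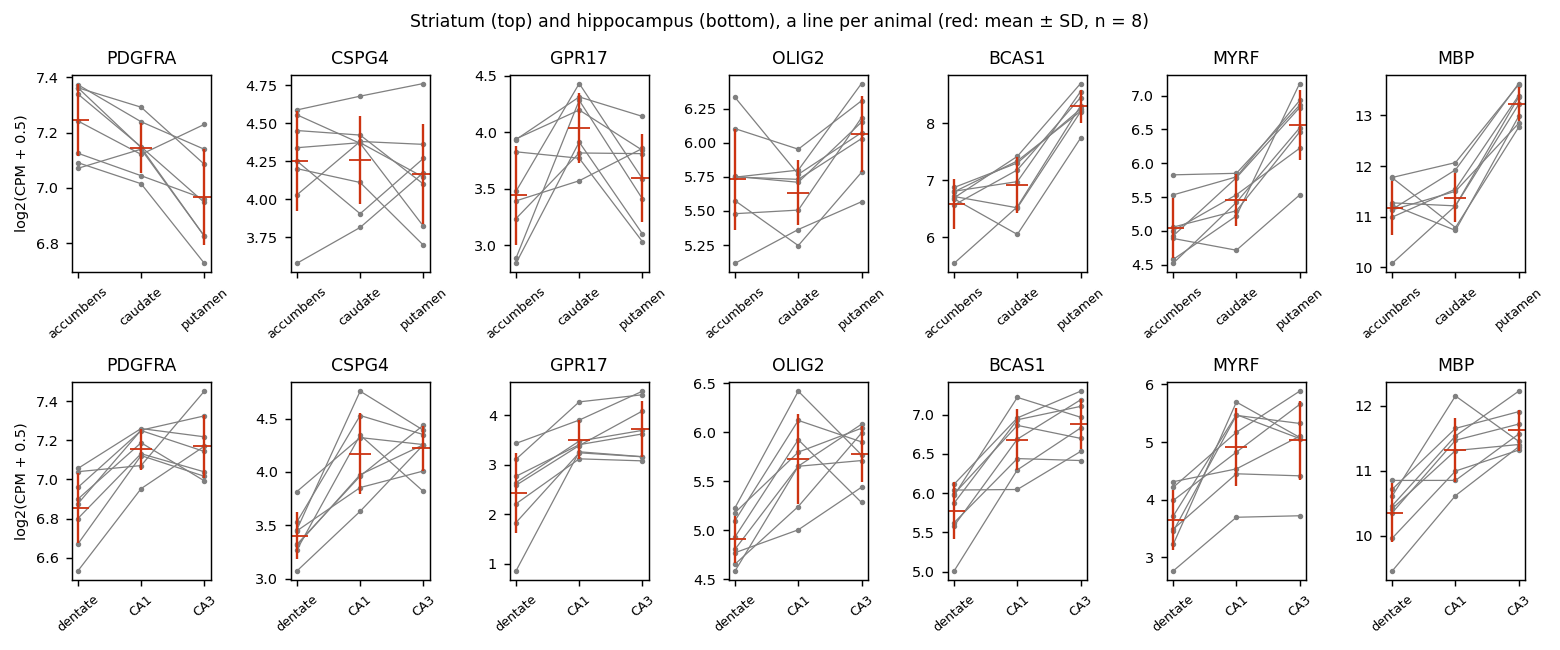
Levels as log2(CPM + 0.5) in the 3 sub-regions of the striatum (top row) and of the hippocampus (bottom row), with 1 grey line per animal and the mean ± SD of 8 animals in red; each panel has its own scale. In the top row MBP, BCAS1 and MYRF climb to the putamen while PDGFRA descends; in the bottom row all 7 genes are lowest in the dentate gyrus.

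In the hippocampus the members moved together. All 6 were called by the F test over dentate gyrus, CA1 and CA3, as were 31.6% of 15495 genes. All 6 were lower in the dentate gyrus than in CA1, in 8 of 8 animals each, where 15.5% of genes were called lower. MYRF measured 6.29 to 19.4 CPM (median 11.7) in the dentate gyrus and 12.5 to 51.3 CPM (median 31.7) in CA1, a log2FC of -1.32 ± 0.19 (FDR = 0.000111). GPR17 measured 1.31 to 10.3 CPM (median 5.61) against 8.18 to 18.7 CPM (median 10.0), a log2FC of -1.09 ± 0.16 (FDR = 0.000120). The log2FC were -0.90 ± 0.13 for BCAS1, -0.85 ± 0.13 for OLIG2, -0.80 ± 0.12 for CSPG4 and -0.30 ± 0.06 for PDGFRA, beside -0.97 ± 0.14 for MBP. Against CA3 all 6 were again lower (15.6% of genes called lower), from -0.32 ± 0.06 for PDGFRA to -1.41 ± 0.19 for MYRF. Between CA3 and CA1 none was called (0.0323% of genes called in either direction). At an unadjusted p under 0.05 there was none either, the smallest being 0.116 for BCAS1, and DESeq2 called none.

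Between cerebellar vermis and cerebellar cortex none of the 6 members was called, with 0.841% of 15334 genes called, and DESeq2 called none. At an unadjusted p under 0.05 stood BCAS1 (log2FC -0.42 ± 0.16, FDR = 0.307) and MYRF (-0.36 ± 0.12, FDR = 0.258), both lower in the vermis in 7 of 8 animals, beside MBP at -0.68 ± 0.20 (FDR = 0.215).

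Samples of 1 sub-region also differed in MBP from animal to animal, and members followed these deviations unequally. Over all samples of the 51 sub-regions, the deviation of log2(CPM + 0.5) from the sub-region mean correlated with that of MBP at r = 0.784 for BCAS1, 0.436 for MYRF, 0.288 for OLIG2, 0.165 for CSPG4, 0.025 for PDGFRA and -0.158 for GPR17. Removing each animal's mean as well gave 0.852, 0.540, 0.450, 0.109, -0.026 and -0.033. Samples of an animal are not independent, and the correlations were not tested.

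Other genes of the lineage were counted beside the members in the corpus callosum contrast (19.4% of all genes higher, 24.8% lower, median log2FC of all genes -0.061). Of 15 other precursor genes, 5 were called higher and 4 lower, with a median of 0.48. SMOC1, a secreted matricellular protein, had the largest rise (3.18 ± 0.21, FDR = 1.68e-27), and CA10, a carbonic anhydrase-related protein that neurons also express, the largest fall (-3.13 ± 0.18, FDR = 1.33e-31). Of 9 genes of committed or newly formed oligodendrocytes, 6 were called higher and none lower, led by ENPP6, a choline phosphodiesterase (5.70 ± 0.28, FDR = 2.83e-37). All 13 measured myelin genes were called higher (median 4.99), led by MOBP (5.60 ± 0.26, FDR = 2.78e-39). Of the PDGF ligand genes, PDGFA was called higher (1.56 ± 0.13, FDR = 3.45e-20), PDGFB lower (-1.58 ± 0.11, FDR = 2.93e-26) and PDGFC was not called (-0.37 ± 0.17).

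The same contrast held genes of other cells. All 6 neuron genes were called lower (RBFOX3 by the most, -5.14 ± 0.29), both microglia genes higher (CSF1R, 1.94 ± 0.18), 2 of 6 astrocyte genes higher (GFAP, 3.58 ± 0.32) and 2 lower (SLC1A2, -1.90 ± 0.38). Of the 9 pericyte and fibroblast genes, COL1A2 alone was called (1.19 ± 0.41, FDR = 0.00673), and of 3 endothelial genes, VWF (1.59 ± 0.19). Both choroid plexus genes were called higher (FOLR1, 5.62 ± 0.43), with a summed level of 9.36 to 110 CPM in the corpus callosum and 1.79 to 12.6 CPM in cortex. The part of these cells in the member values was not tested.

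The genes most like each member over the 51 sub-regions (Pearson's r of mean log2(CPM + 0.5), named genes, pituitary included) differed between early and late members. MYRF was most like ERMN (0.994), MOBP (0.994) and MOG (0.993), which are myelin genes, and BCAS1 most like MBP (0.991), MOG (0.983) and GPR37 (0.983). OLIG2 was most like PSAT1 (0.972), an enzyme of serine synthesis, ACSM5 (0.951) and SCRG1 (0.949). GPR17 was most like SLCO2B1 (0.937), SELPLG (0.930) and ACSM5 (0.929). CSPG4 was most like NKAIN4 (0.913), the microglial receptor P2RY12 (0.900) and GPR17 (0.896), and PDGFRA most like NKAIN4 (0.883), the Notch ligand DLL3 (0.879) and ACSS1 (0.851). Among the members themselves, within the cortex, PDGFRA, CSPG4 and GPR17 had r of 0.81 to 0.86 with each other and BCAS1 and MYRF had 0.98.

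For age, mid-aged animals were compared with young ones in each region group, 4 against 4 with sex as a covariate. None of the 92 pairs of member and region group was called at FDR < 0.1 and an absolute log2FC above 1, and 0.0153% of all such pairs over genes were. At an unadjusted p under 0.05 there were 11 of 92 (5.73% over all genes), and DESeq2 called 1, CSPG4 in the pituitary. OLIG2 took 7 of these 11. Its log2FC was negative in all 15 region groups tested, from -0.50 to -0.06 (smallest FDR = 0.305). In the corpus callosum OLIG2 measured 219 to 315 CPM in the young and 171 to 204 CPM in the mid-aged animals, and in the globus pallidus 182 to 248 and 135 to 166 CPM, without overlap. In the cortex it measured 40.003 to 49.3 CPM and 30.9 to 40.7 CPM, overlapping.

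All mid-aged animals lay below all young ones in 4 of 16 region groups for OLIG2, 2 for GPR17 and 1 for PDGFRA, and in none for CSPG4, BCAS1 and MYRF, against 2.03% of pairs over all genes. Region groups share the same 8 animals, so these counts are not independent. With counts of all sub-regions summed per animal, OLIG2 had a log2FC of -0.35 ± 0.11 (FDR = 0.892) and GPR17 of -0.37 ± 0.16 (FDR = 0.972), beside 0.05 ± 0.11 for MBP. GPR17 was negative in 14 of 15 region groups, the olfactory bulb being the exception (0.51), and MYRF was positive in 11 of 15. Rhesus 4, a young animal, had the lowest MYRF of the 8 in the globus pallidus (134 CPM), CA1 (12.5 CPM), CA3 (12.7 CPM) and putamen (45.7 CPM). It did not in the corpus callosum, hypothalamus or nucleus accumbens. The part of this animal in the MYRF direction was not tested. CSPG4 in the pituitary had the largest difference, -1.57, at 3.38 to 5.80 CPM in the young and 0.551 to 3.52 CPM in the mid-aged animals (edgeR FDR = 0.320).

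**Figure D5:**
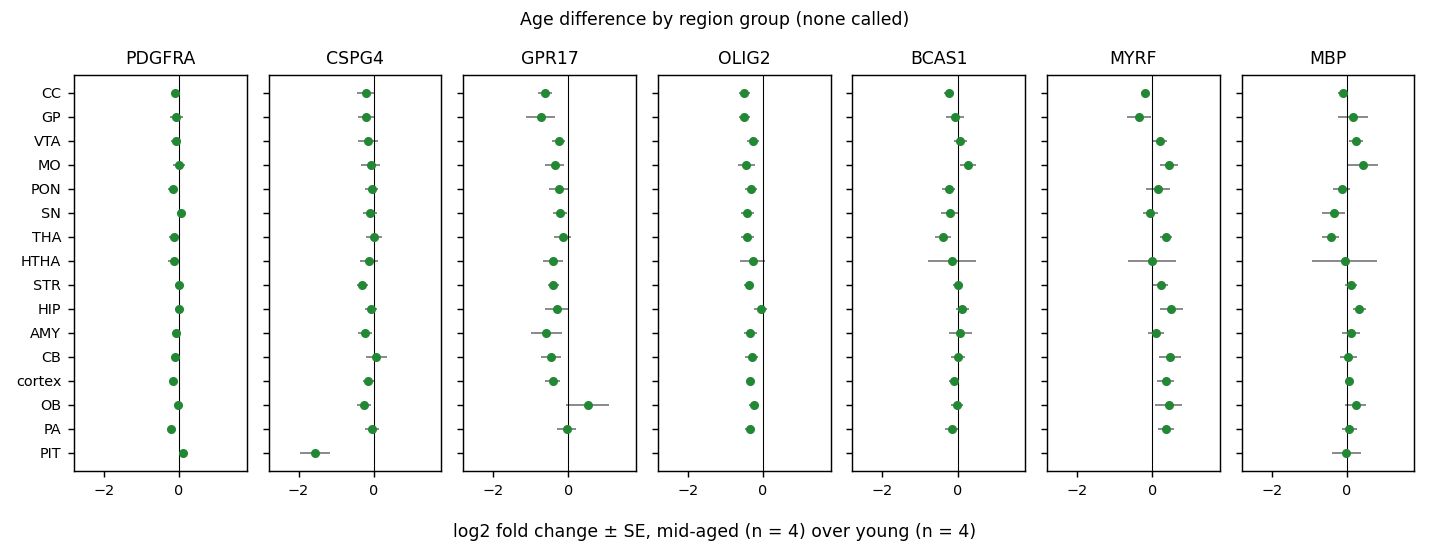
Log2 fold change ± SE of mid-aged over young animals (4 against 4) in each region group for the 6 members and MBP; GPR17, OLIG2, BCAS1 and MYRF were not tested in the pituitary, where their counts did not pass the filter. None is called; all points for OLIG2 lie below 0 (-0.50 to -0.06), and the point far to the left is CSPG4 in the pituitary (-1.57).

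For sex, none of 92 pairs was called, with 0.103% of pairs over all genes called and none by DESeq2, and 4 of 92 had an unadjusted p under 0.05 (3.56% over all genes). The largest difference was CSPG4 in the pituitary, with a log2FC of female over male of -0.98 (FDR = 0.225).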

How the data were processed

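RNA of 51 sub-regions of 8 animals was measured by ribosomal RNA-depleted RNA-seq. By the study's methods, the authors trimmed samples of poor read quality with Trim Galore 0.4.4, mapped reads to Mmul 8.0.1 with HISAT2 2.0.5, counted them on Ensembl genes with HTSeq 0.6.1 and deposited whole-number counts per gene without normalization. Strand and overlap options are not given in the sources used here, so counts of overlapping or antisense genes are uncertain. Of 30807 gene rows, 17572 had a symbol in a reference table. The 8 midbrain and 33 ATAC samples were not used here.

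Counts were tested in R 4.3.3 with edgeR 4.0.16 (TMM, filterByExpr, quasi-likelihood F test, Benjamini-Hochberg adjustment over all genes tested). Standard errors were derived from the F statistic, as |log2FC| divided by the root of F. Counts of a region group were summed within each animal. Region fits had the animal as a block, since samples carry the same animal's number. Deviations from the group means in samples of the same animal correlated at 0.142 to 0.498 for corpus callosum and cortex and at 0.414 to 0.606 for putamen and caudate nucleus. Age and sex fits had the other factor as a covariate. CPM of single samples served for levels, and a pseudocount of 0.5 CPM for logs. Scripts were tested on simulated data. The alternatives were DESeq2 1.42.0, its size factors in edgeR, the study's detection rule as filter, no block or no covariate, a pseudocount of 0.1 CPM and rank correlation. Animals were left out only in the age and sex fits.

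The members and gene lists were chosen with earlier results of these data known. Named genes were the members, MBP, the 3 genes most like each member, and of each list the gene with the largest called change in each direction between corpus callosum and cortex. SLC17A7, FOLR1, COL1A1, RGS5, PDGFC, PRL, CGA and POU1F1 were named after their values were seen. Depth of 7784678 to 31083490 counts leaves the low members imprecise.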

Additional observations from a re-analysis of the deposited data

Results flagged for a closer look

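Of 112 groups of 8 animals (6 members and MBP in 16 region groups), 8 had 1 sample whose gap to the nearest other was large for the group's range by Dixon's test, and chance flags about 1 in 20 groups. In each it was the highest sample. The ratios were taken on CPM and not on logs, and on that scale high samples stand out more than low ones. GPR17 in the hypothalamus was 26.4 CPM in Rhesus 7, with 17.1 CPM next, and OLIG2 in the medulla was 147 CPM in Rhesus 4, with 101 CPM next. BCAS1 in the ventral tegmental area was 1323 CPM in Rhesus 3, with 1059 CPM next, and the same sample held 44152 CPM of MBP, with 34181 CPM next. MYRF in the entorhinal and perirhinal cortex was 19.3 CPM in Rhesus 11, with 11.99 CPM next. MBP itself was 73357 CPM in the globus pallidus of Rhesus 2 (38261 next), 22445 CPM in the hypothalamus of Rhesus 3 (10665 next) and 16346 CPM in the thalamus of Rhesus 8 (10441 next).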

How the results depend on the processing

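The counts of called members in the corpus callosum (4), the other region groups (31), all 16 region groups (6), cortical sub-regions (6), striatum (5), hippocampus (6) and cerebellum (0) stayed within 1.5 times their value under every alternative run. For the corpus callosum, the other region groups and all 16 region groups, these included 6 libraries left out, each chosen after seeing the data. No sample was left out for the cortical sub-regions, striatum, hippocampus or cerebellum. Of 938 alternative values for single genes and contrasts, 924 kept their side of the threshold and no called value turned direction, 8 lost a call and 6 gained one. Without the replicate block, the counts stayed at 4 in the corpus callosum and 31 in the other region groups. GPR17 lost its call in the substantia nigra (log2FC 0.99), GPR17 (-0.43) and PDGFRA (-0.17) lost theirs in putamen over caudate nucleus and OLIG2 in putamen over nucleus accumbens (0.32), while OLIG2 in the hypothalamus gained one (1.00). With the study's detection rule as filter, GPR17 (0.94) and OLIG2 (0.95) lost their calls in the substantia nigra. DESeq2 called OLIG2 in the hypothalamus (1.06), MYRF in nucleus accumbens over caudate nucleus (-0.39) and MBP in vermis over cerebellar cortex (-0.67), and not PDGFRA in the pituitary (-0.97). For age DESeq2 called 1 pair of member and region group and edgeR 0. Leaving out 1 animal at a time, the age and sex counts ranged from 0 to 0. For the relation to MBP, Spearman's rho over 51 sub-regions was -0.071 for PDGFRA, 0.17 for CSPG4, 0.37 for GPR17 and 0.68 for OLIG2. Pearson's r without the pituitary was 0.020 for PDGFRA, 0.27 for CSPG4 and 0.63 for GPR17. Pearson's r over 16 region groups was 0.59 for PDGFRA, 0.80 for CSPG4, 0.94 for GPR17, 0.93 for OLIG2 and 0.998 for BCAS1. With animal means also removed, the correlation of deviations from MBP was -0.026 for PDGFRA and 0.45 for OLIG2. The cause of these changes was not tested. Counts of 0 to 28 in the pituitary limit GPR17, OLIG2, BCAS1 and MYRF there.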
